A study of Homo sapiens with 6 samples.

Results

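Lowered neighbours of MMUT on chromosome 6 are a set of 10 genes, CENPQ, TRAM2, GSTA4, FBXO9, ELOVL5, BAG2, RAB23, PRIM2, PTP4A1 and PHF3, from 6p12 to 6q12. With other genes between them, they start 0.03 to 14.2 Mb from the start of MMUT, the gene of mitochondrial methylmalonyl-CoA mutase. They were chosen by position and by their lower signal in the comparison of the groups, out of 19775 genes with a probe set of their own. Of the 10 genes, 9 had such a probe set and 27 probe sets named them alone, while for FBXO9 no probe set is named in the annotation used here and its level was not analysed. A further 4 probe sets were assigned to both PRIM2 and PRIM2BP. The name of the set held for only some members: the 7 measured genes from CENPQ to PRIM2 had lower group means on the arrays labelled TAT-2, whereas the brightest probe sets of PTP4A1 and PHF3 gave nearly the same means in both groups.

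The study concerns the effect of trypsin-2, a serine protease encoded by PRSS2, on the transcripts of HSC-3, an established line of squamous carcinoma of the human tongue. RNA was measured on 6 Affymetrix arrays, of which 3 were labelled TAT-2 (HSC-3 cells overexpressing trypsin-2) and 3 were labelled vector (HSC-3 cells with the control vector). Every culture ran for 48 h. The medium of both groups held fetal calf serum, antibiotics and hydrocortisone, and cells of both were detached with trypsin, washed and frozen before extraction. The promoter of the construct, and whether each line was a clone or a pool, are not given in the sources used here. The labels do not call the replicates separate cultures, and p-values therefore cover only the spread between these arrays, possibly a technical one.

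Signals were linear and scaled by the authors to a trimmed mean near 100 on each array, with array medians from 14.7 to 17.5, and the number of arrays limits the precision. The probe sets of the introduced gene went against the labels. The brighter PRSS2 probe set gave 20.4, 13.8 and 14.6 on the arrays labelled TAT-2, against 19.6, 80.8 and 83.2 on those labelled vector. The other gave 19.9, 17.9 and 19.5 on the arrays labelled TAT-2, against 22.6, 38.0 and 54.5. Both end in _x_at, and whether their signals come from PRSS2 or from the construct was not tested. Every direction below therefore rests on the labels alone. Of 8 squamous keratinocyte markers 5 had a probe set of their own and all 5 lay above the filter on low signals, with summed signals of 21612 to 24091 on arrays labelled TAT-2 and 18395 to 25514 on arrays labelled vector. Markers of fibroblasts, leukocytes and endothelium summed to at most 137 on any array. The first principal component (45.6% of the variance) separated the replicate 1 arrays of both groups from the other 4. In bulk RNA, fewer cells of a type and less RNA per cell cannot be told apart.

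The members have unrelated tasks and share mainly their place. Genes that lie head to head can share a promoter region. In squamous epithelium and the carcinomas derived from it, most of the members act in processes that all dividing cells use. CENPQ is a subunit of the inner kinetochore, PRIM2 the large subunit of DNA primase, and PHF3 a PHD finger protein that binds RNA polymerase II. TRAM2 belongs to the protein translocation machinery of the endoplasmic reticulum, ELOVL5 elongates polyunsaturated fatty acids, and GSTA4 conjugates glutathione to the lipid peroxidation product hydroxynonenal. FBXO9 is a substrate receptor of SCF ubiquitin ligases, BAG2 a co-chaperone of HSP70, RAB23 a small GTPase that restrains Hedgehog signalling in the mouse, and PTP4A1 a prenylated protein tyrosine phosphatase.

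In the assembly GRCh38.p14, MMUT lies at chr6:49430360-49463253 on the minus strand and CENPQ at chr6:49463370-49493107 on the plus strand, so that these genes run away from each other with 116 bases between them. TRAM2 (chr6:52497408-52577060), GSTA4 (chr6:52977953-52995284), FBXO9 (chr6:53064998-53100873) and ELOVL5 (chr6:53267404-53348950) form a further group, and all but FBXO9 are on the minus strand. BAG2 (chr6:57172326-57189833, plus strand), RAB23 (chr6:57186992-57222307, minus strand) and PRIM2 (chr6:57221540-57646850, plus strand) form a group whose gene bounds overlap. BAG2 and RAB23 share 2842 bases at the ends of both genes, and the bounds of RAB23 and PRIM2 share 768 bases on their start sides. The annotated PRIM2 starts among the promoter windows described below, at chr6:57314805 and chr6:57317630, lie farther inside the PRIM2 bounds. PTP4A1 (chr6:63516440-63583588) and PHF3 (chr6:63635802-63726011), both on the plus strand, lie on the long arm across the centromere.

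Promoter windows of 300 bases, from 250 bases before to 50 bases after an annotated start, were taken from RefSeq (GRCh38.p14), and all 10 members matched, with 18 windows in all. The 3 windows below are shown because CENPQ had the largest difference of the members and its window holds the start of MMUT as well, because BAG2 had the next largest, and because PHF3 showed nearly none. They read 5′ to 3′ on the strand of the gene, at chr6:49463120-49463419 for CENPQ, chr6:57172076-57172375 for BAG2 and chr6:63635552-63635851 for PHF3 (the first of 3 PHF3 windows), with capitals marking CCAAT and GGGCGG on either strand.
CENPQ: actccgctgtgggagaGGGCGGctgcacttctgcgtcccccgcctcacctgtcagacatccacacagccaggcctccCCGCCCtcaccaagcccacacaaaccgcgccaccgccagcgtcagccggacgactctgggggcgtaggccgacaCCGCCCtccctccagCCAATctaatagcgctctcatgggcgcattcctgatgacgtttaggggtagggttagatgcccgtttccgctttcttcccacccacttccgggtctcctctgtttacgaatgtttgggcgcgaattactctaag
BAG2: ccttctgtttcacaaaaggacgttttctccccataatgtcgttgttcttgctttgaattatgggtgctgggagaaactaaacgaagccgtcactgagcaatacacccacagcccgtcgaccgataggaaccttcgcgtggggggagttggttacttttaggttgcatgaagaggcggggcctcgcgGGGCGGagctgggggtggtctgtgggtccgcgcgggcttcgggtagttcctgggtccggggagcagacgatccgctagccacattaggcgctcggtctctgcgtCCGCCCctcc
PHF3: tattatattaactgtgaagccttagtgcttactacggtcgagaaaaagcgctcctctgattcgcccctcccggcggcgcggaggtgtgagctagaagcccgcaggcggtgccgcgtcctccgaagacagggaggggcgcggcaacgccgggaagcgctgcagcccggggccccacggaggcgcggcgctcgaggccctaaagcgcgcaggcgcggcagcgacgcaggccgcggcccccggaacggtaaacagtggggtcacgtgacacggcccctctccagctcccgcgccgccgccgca
The CENPQ and MMUT windows share 216 bases, and in both a CCAAT motif, written as its reverse complement on the strand of MMUT, stands beside a GGGCGG motif. CCAAT (both strands) was found in 5 of 18 member windows and in 34.6% of the 35114 windows of all genes. GGGCGG (both strands) was found in 8 of 18 member windows, against 45.0% of all windows. TATAAA was found in 2 of 18 and in 11.5% of all windows, and TGACNNNGC, the core of the antioxidant response element, in 3 of 18 and in 13.3%, both strands again counted. The GC content of the member windows ran from 26.7% to 83.3%, with 9 of 18 above the median of all windows (58.7%). A match is a description of letters and not of a bound site.

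The comparison of arrays labelled TAT-2 with arrays labelled vector is the one on which the members were chosen, so its values are given as a description, and the counts of limma calls further on are no evidence about the members. Differences are log2(signal + 16) of the array labelled TAT-2 minus that of the vector array of the same replicate number, given as mean ± SD over the 3 numbers. The added 16 makes the difference of dim probe sets smaller than that of their signals.

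**Figure D1:**
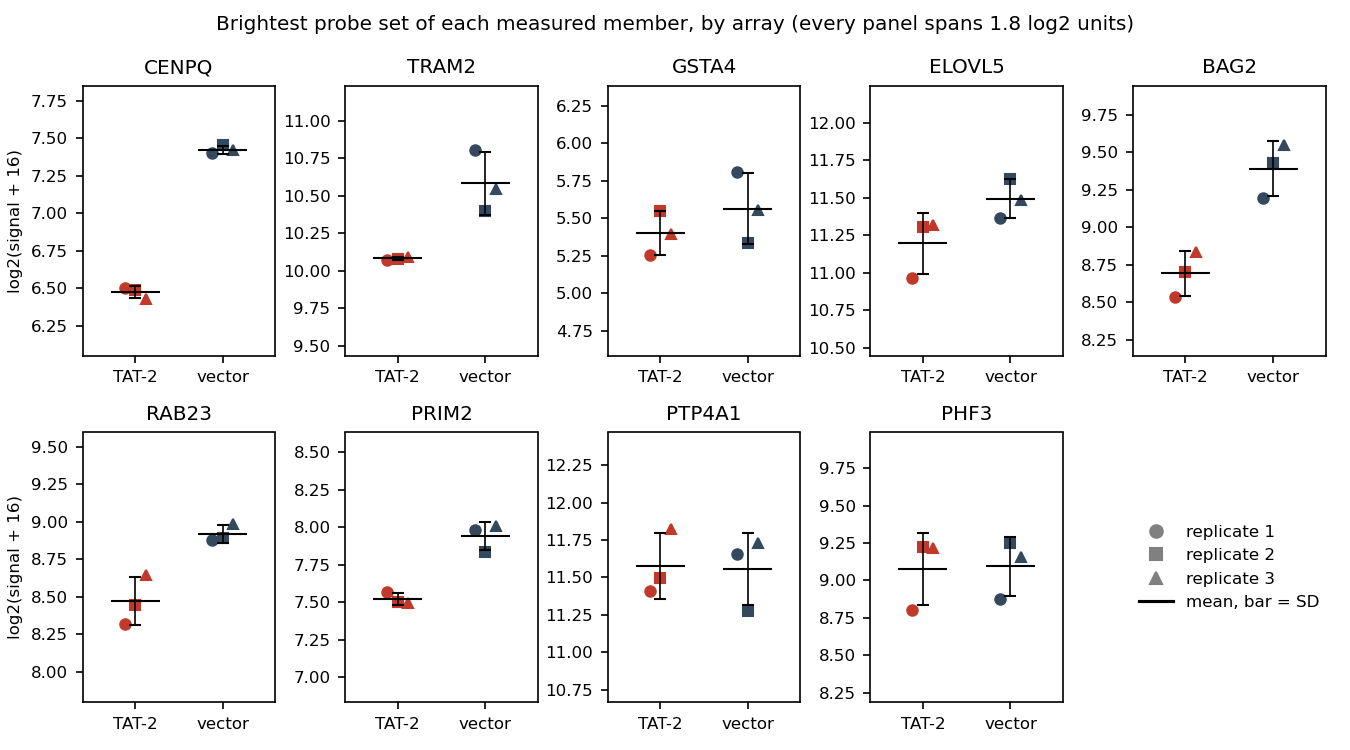
Log2(signal + 16) of the brightest probe set of each measured member on each array, arrays labelled TAT-2 at the left and labelled vector at the right of each panel. Symbols mark the replicate number, lines the mean and bars the SD (n = 3). The groups do not overlap for CENPQ, TRAM2, ELOVL5, BAG2, RAB23 and PRIM2, and they do for GSTA4, PTP4A1 and PHF3.

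CENPQ, which helps hold chromosomes to the spindle as part of the inner kinetochore, had the largest difference of the members. Its only probe set gave 74.8, 73.7 and 70.1 on arrays labelled TAT-2, against 152.9, 159.2 and 155.5 on arrays labelled vector. The groups lay far apart and each was tight, with 72.9 ± 2.47 and 156 ± 3.18 (SD, n = 3 each). The log2 difference was -0.95 ± 0.05, a level 1.93-fold lower in TAT-2. MMUT, on the other side of the 116 bases, was at -1.10 ± 0.04 on its brighter probe set and at -1.03 ± 0.20 on the other.

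TRAM2 and ELOVL5, both proteins of the endoplasmic reticulum, were lower by smaller amounts. The brightest TRAM2 probe set gave 1060, 1067 and 1078 on arrays labelled TAT-2, against 1774, 1331 and 1479 on arrays labelled vector. The arrays labelled TAT-2 hardly differed from each other, and vector replicate 1 was the highest of all. The difference was -0.50 ± 0.21, and the other TRAM2 probe sets were at -0.56 ± 0.02 and -0.67 ± 0.44, each with no overlap between the groups. ELOVL5 gave 1981, 2518 and 2542 on arrays labelled TAT-2 and 2628, 3149 and 2857 on arrays labelled vector on its brightest probe set, a difference of -0.30 ± 0.12. The lowest vector array stood only just above the highest array labelled TAT-2. The 3 dimmer ELOVL5 probe sets overlapped between the groups and were at -0.24, -0.16 and -0.08, with SDs of 0.39, 0.13 and 0.41.

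GSTA4, the glutathione transferase of the set, was dim. Its brighter probe set gave 22.2, 30.7 and 26.2 on arrays labelled TAT-2 and 39.9, 24.3 and 31.0 on arrays labelled vector. The groups overlapped, replicate 2 ran the other way, and the difference of -0.16 ± 0.38 was smaller than its spread. Its other probe set lay below the filter, with signals of 2.12 to 12.7 on arrays labelled TAT-2 and 1.66 to 14.9 on arrays labelled vector. Without replicate 1 of both groups the GSTA4 difference changed sign, to 0.03.

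BAG2, RAB23 and PRIM2, whose bounds overlap, were all lower on their brightest probe sets. BAG2, which limits ubiquitination of HSP70 clients, gave 355, 401 and 441 on arrays labelled TAT-2, against 569, 673 and 734 on arrays labelled vector. In both groups replicate 1 was lowest, and the difference was nearly the same in each number, at -0.66, -0.72 and -0.72 (mean -0.70 ± 0.04). A dimmer BAG2 probe set was at -0.30 ± 0.21 with overlapping groups, and the other, below the filter, at -0.49 ± 0.45.

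RAB23 gave 303, 333 and 384 on arrays labelled TAT-2, against 454, 459 and 491 on arrays labelled vector. The groups were apart, with a difference of -0.45 ± 0.11, and its 2 other probe sets, at -0.40 ± 0.26 and -0.39 ± 0.19, did not overlap either. PRIM2, whose product starts DNA strands together with PRIM1, gave 174, 166 and 165 on arrays labelled TAT-2, against 236, 212 and 242 on arrays labelled vector. The difference was -0.42 ± 0.09, again with no overlap. Of the probe sets assigned to both PRIM2 and PRIM2BP, those above the filter were at -0.62 ± 0.19 and -0.49 ± 0.11, and which of the 2 genes they read cannot be told apart here.

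PTP4A1 and PHF3, the members on the long arm, did not have lower signals on their brightest probe sets. PTP4A1 gave 2708, 2871 and 3612 on arrays labelled TAT-2, against 3219, 2469 and 3382 on arrays labelled vector, a difference of 0.02 ± 0.24. Its arrays interleaved, and the 3 other probe sets above the filter were at 0.00 ± 0.07, 0.07 ± 0.06 and 0.10 ± 0.05. The last of these, with 626, 612 and 614 on arrays labelled TAT-2 and 592, 550 and 590 on arrays labelled vector, had no overlap and was higher in TAT-2. The remaining probe set, below the filter, was at -0.64 ± 0.60, with signals of 3.86 to 5.25 on arrays labelled TAT-2 and 3.20 to 25.7 on arrays labelled vector.

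PHF3 gave 430, 581 and 579 on arrays labelled TAT-2, against 454, 593 and 555 on arrays labelled vector, a difference of -0.01 ± 0.07. Replicate 1 was low in both groups and the groups overlapped. Its 3 other probe sets above the filter, at -0.06 ± 0.09, -0.15 ± 0.31 and -0.17 ± 0.20, overlapped too, and the remaining one, below the filter, was at -0.05 ± 0.02. With single arrays or replicate numbers left out, the difference of the brightest probe set ran from -0.12 to 0.12 for PHF3 and from -0.12 to 0.16 for PTP4A1.

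**Figure D2:**
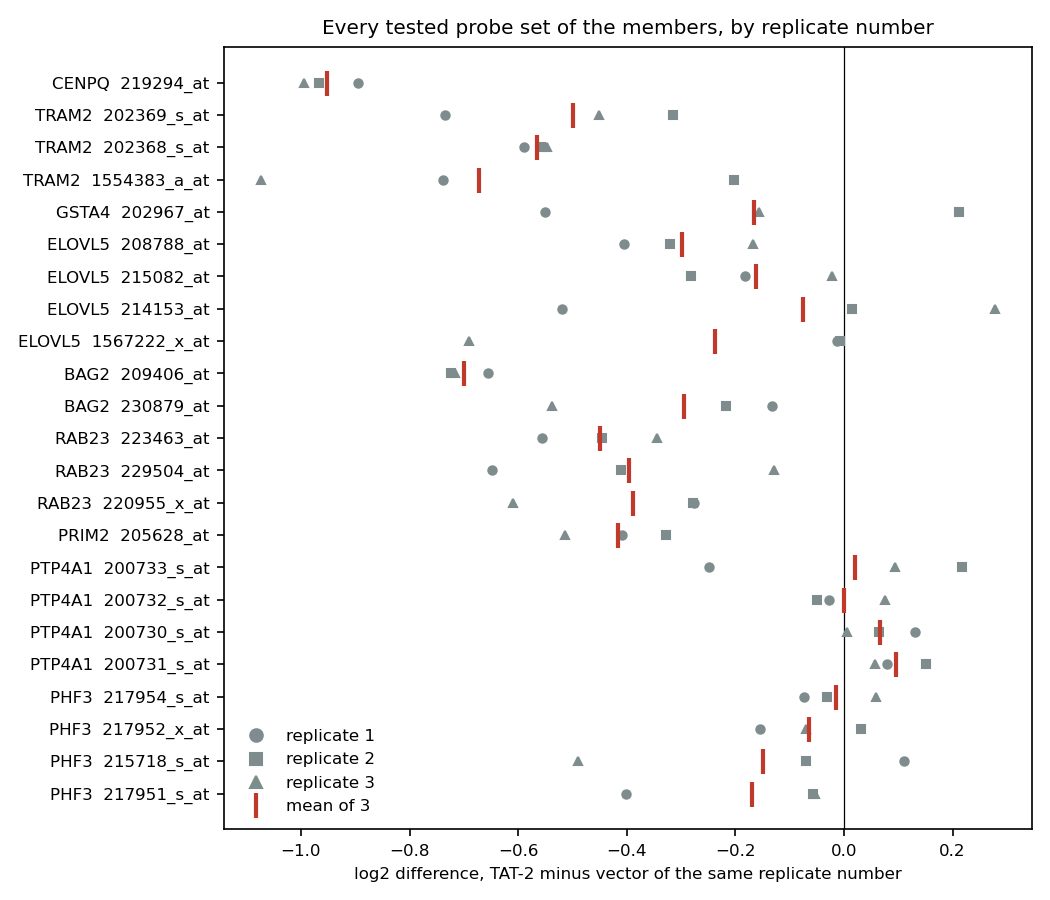
Log2 difference (TAT-2 minus vector of the same replicate number) of the 23 member probe sets above the filter, in gene order down the page. Grey symbols are the 3 replicate numbers and red bars their mean. All 15 probe sets from CENPQ to PRIM2 have a mean below 0, from -0.95 to -0.08. The 8 of PTP4A1 and PHF3 run from -0.17 to 0.10, and every PHF3 mean is below 0.

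Of the 27 probe sets that name 1 member, 23 passed the filter, and for these 20 had a mean difference below 0. All 15 from CENPQ to PRIM2 were below 0 and 10 of them had no overlap between the groups, where 7.35% of all 27307 tested probe sets had no overlap in that direction. With the replicate number as a block, limma called 8 of the 23, all lower and all among those 15, where it called 2.66% of tested probe sets lower. Without the block it called 0 of the 23 at an adjusted p under 0.05, and 0.0293% of all. At an unadjusted p under 0.05 there were 10 of the 23, beside 2146 of all 27307 in either direction. The block fit called 4 of the members' probe sets without a filter on low signals, and 0 when the variance had no intensity trend. Since the members were chosen on this contrast, nothing is read from these counts. The median over the 9 measured genes was -0.42, with -0.55, -0.32 and -0.34 in replicates 1, 2 and 3, beside 0.00 over all 12151 tested genes.

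The genes lying between the members, which the set leaves out, were described in the same way. Of 21 other tested genes from CENPQ to PHF3, 18 were lower on the arrays labelled TAT-2, beside 50.5% of all tested genes, and 11 had no overlap in that direction, beside 7.83%. Their median difference was -0.38, with -0.31, -0.31 and -0.46 in replicates 1, 2 and 3. The block fit called 7 of them, all lower, where it called 3.46% of all genes lower, and limma without the block called 0. Without the intensity trend the block fit called 0 probe sets in all, so these 7 calls were lost too. The largest differences were those of C6orf141, 2 places from MMUT (-1.09), of GCLC, the catalytic subunit of glutamate-cysteine ligase (-0.84), and of ZNF451, a SUMO ligase (-0.78). PAQR8, a membrane progestin receptor, followed with -0.66 ± 0.30, then KIAA1586 with -0.55 ± 0.39 and the kinase CILK1 with -0.53 ± 0.18. The groups of PAQR8 and CILK1 overlapped, and those of KIAA1586 did not. The 3 genes above 0 were LOC101927020 (0.27), the ferritin pseudogene FTH1P5 (0.06) and GSTA1 (0.02), a relative of GSTA4. LOC101927020 was dim, with signals of 6.75 to 26.7 over the arrays. Its differences in replicates 1, 2 and 3 were 0.27, 0.81 and -0.28. The FTH1P5 probe set ends in _x_at and had signals of 4268 to 4837. Whether these signals come from this gene was not tested.

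**Figure D3:**
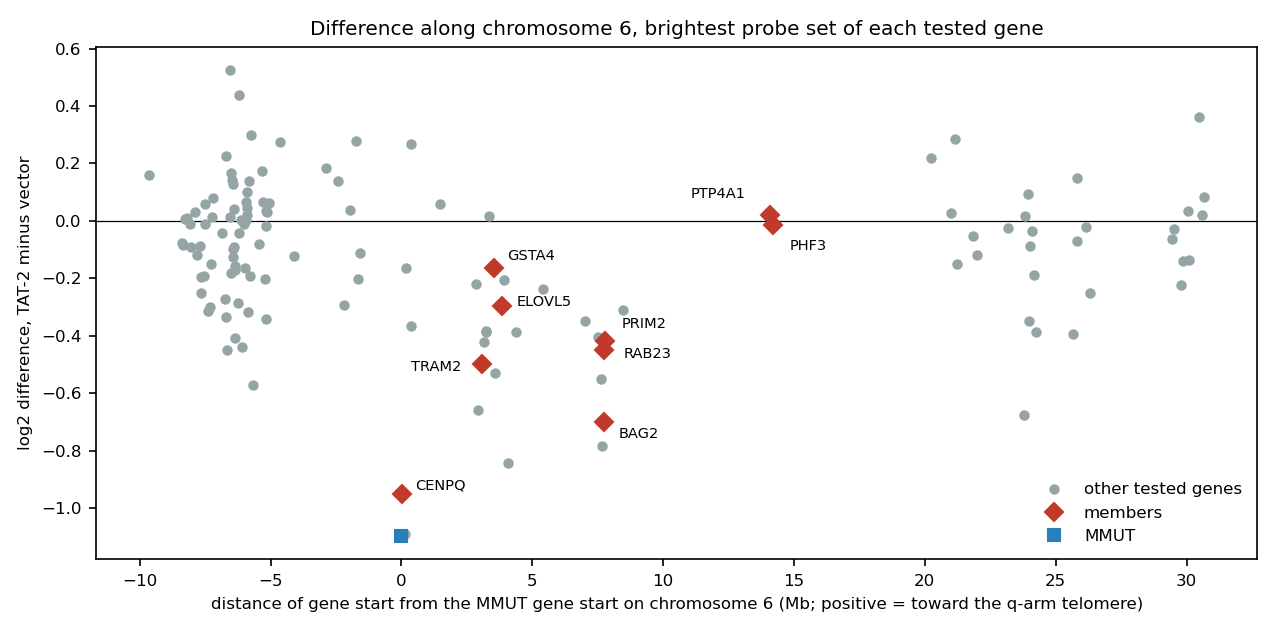
Log2 difference (TAT-2 minus vector) of the brightest probe set of each tested gene on chromosome 6, against the distance of its start from the MMUT start in Mb. Red diamonds are members, the blue square is MMUT and grey points are other genes. From MMUT to PRIM2, 7.79 Mb on, all but 3 points lie below 0, while PTP4A1 and PHF3, 14.1 and 14.2 Mb on, lie at 0.

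On either side the next tested genes were near 0 or above it, some of them far off. The tested gene before MMUT was PTCHD4, which ends 1.35 Mb before CENPQ, at -0.11 ± 0.45, and the gene after PHF3 was LMBRD1, a lysosomal cobalamin transporter that starts 5.95 Mb on, at 0.22 ± 0.10. PTCHD4 was dim, with signals of 9.23 to 21.5 over the arrays, so it says little of where the lower signals end. PTCHD4 and the 3 genes above 0 were chosen after their values were seen. Of the 30 tested genes before CENPQ, MMUT among them, 13 were lower (median 0.03), and of the 30 after PHF3 20 were lower (median -0.06). The block fit called 2 of the former, with MMUT, and 3 of the latter lower, where it called 3.46% of all genes lower. Over the 620 tested genes of chromosome 6 outside the stretch the median was 0.03. This stretch of lower genes was known from earlier results of these data, so its bounds are a description.

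The pattern of the members over the 6 arrays was compared with that of every other tested gene, as the root mean square difference of centred log2 values from the mean of the 9 members. The closest genes were ITCH, a ubiquitin ligase (0.038), the integrin ITGB5 (0.039), MLEC, a lectin of the endoplasmic reticulum (0.044), the zinc finger gene ZNF18 (0.046) and ISM1 (0.047). They lie on chromosomes 20, 3, 12, 17 and 20, so none is a neighbour of the members. The mean profile includes PTP4A1 and PHF3 and carries the contrast on which the members were chosen, so nothing is read from these distances. Among the members RAB23 was closest to their mean (0.059) and CENPQ farthest from it (0.30).

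A contrast that did not choose the members is that of replicate 1 with replicates 2 and 3 of both groups, since the description field of the labels gives replicate 1 of each group no number and the other replicates one. With group as a further term, limma called 5 of the 23 tested member probe sets, where it called 21.5% of all tested probe sets, so that their share was near that of all. The brightest probe set of PHF3 averaged 442 on the replicate 1 arrays and 577 on the other 4, a log2 difference of -0.37 ± 0.07 (SE, limma adjusted p = 0.00432). ELOVL5 fell by 0.27 ± 0.07 on its brightest probe set (SE, limma adjusted p = 0.0163), with 2304 on replicate 1 and 2767 on the others. BAG2 fell by 0.26 ± 0.08 (SE, limma adjusted p = 0.0317), with 462 on replicate 1 and 562 on the others. A TRAM2 probe set fell by 0.25 ± 0.08 (SE, limma adjusted p = 0.0357), while the brightest TRAM2 probe set was at 0.16 ± 0.09 (adjusted p = 0.213). A PTP4A1 probe set rose by 0.43 ± 0.08 (SE, limma adjusted p = 0.0037), with 1107 on replicate 1 and 819 on the others, while the 3 other tested probe sets of PTP4A1 were at -0.08 to 0.04. CENPQ was at 0.01 ± 0.11 (SE, limma adjusted p = 0.981). A 28S ribosomal RNA probe set moved with this contrast, at 682 (labelled TAT-2) and 530 (labelled vector) on the replicate 1 arrays and 2030 to 2537 on the others, as did, for ACTB, the log2 of signal near the 3′ end over that near the 5′ end, at 0.21 and 0.25 on replicate 1 and 0.46 to 0.59 on the others. For GAPDH the same ratio went the other way, at 0.032 (labelled TAT-2) and 0.090 (labelled vector) on replicate 1 and -0.005 to 0.021 on the others. The part of these measures in the differences was not tested. Without the TAT-2 replicate 1 array limma called 0 of the 23, and without any of the vector arrays, left out in turn, it called 3.

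The partners of the members, genes that act in the same complexes or pathways, were tested between the arrays labelled TAT-2 and labelled vector. They numbered 178 in 10 lists, and 146 passed the filter, GSTA1 and MCM3 of the stretch among them. Limma called 0 of the 146, and 0.0576% of all 12151 genes. At an unadjusted p under 0.05 there were 14 of the 146 genes, beside 2146 of the 27307 tested probe sets. The like share over genes is not given here. With the replicate block it called 10 higher and 4 lower, where it called 3.5% of all genes higher and 3.46% lower. The calls were lost in the block fit without the intensity trend of the variance, which called 0 of the 146 and 0 of all tested probe sets, with 4260 probe sets at an unadjusted p under 0.05. The median of the 146 was 0.03, and 63 were below 0.

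For CENPQ, 14 partners in the centromere network had a median of 0.08 and for TRAM2, 17 translocon and signal peptidase genes one of 0.04, and the block fit called 0 in both lists, with 0 and 1 at an unadjusted p under 0.05 in limma without the block. For PRIM2, 26 replisome genes had a median of -0.11. In the block fit CDC45, a replication helicase factor (0.54 ± 0.07, SE, adjusted p = 0.00144), and STN1 of the CST complex (0.53 ± 0.10, adjusted p = 0.0121) rose. GINS1, of the same helicase (-0.49 ± 0.07, adjusted p = 0.00299), and the sliding clamp PCNA (-0.29 ± 0.07, adjusted p = 0.0294), named after its value was seen, fell. MCM3, in this list, lies among the genes between CENPQ and TRAM2 and was at -0.22, not called.

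For ELOVL5, 14 genes of fatty acid elongation and desaturation had a median of 0.09, and in the block fit the desaturase SCD (1.31 ± 0.23, SE, adjusted p = 0.00808) and the acyl-CoA synthetase ACSL5 (0.66 ± 0.09, adjusted p = 0.00307) rose. SCD had overlapping groups and an SE of 0.67 without the block. For GSTA4, 13 glutathione transferases had a median of 0.00, and in the block fit GSTT2 (0.68 ± 0.11, adjusted p = 0.00615) and GSTO1 (0.32 ± 0.06, adjusted p = 0.0144) rose and GSTP1 fell (-0.39 ± 0.08, adjusted p = 0.0135). The groups of GSTP1 overlapped. GSTT2 has a near-identical copy in the genome, so its value is uncertain.

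For BAG2, 12 genes of the HSP70 system had a median of 0.04, and in the block fit its relatives BAG3 (0.41 ± 0.06, SE, adjusted p = 0.00413), BAG1 (0.39 ± 0.08, adjusted p = 0.0154) and BAG6 (0.26 ± 0.07, adjusted p = 0.0495) rose. The groups of BAG1 and BAG6 overlapped. For FBXO9, 16 genes of SCF ligases and the TTT complex had a median of 0.01, and TTI1 fell (-0.30 ± 0.07, adjusted p = 0.0343 in the block fit). For PHF3, 19 genes around RNA polymerase II had a median of 0.06, and its subunit POLR2G rose (0.41 ± 0.07, adjusted p = 0.00511 in the block fit). For RAB23, 10 genes of Hedgehog signalling had a median of -0.01, and for PTP4A1, 5 phosphatase and magnesium transporter genes had one of 0.14, and the block fit called 0 in both, as did limma without it at an unadjusted p under 0.05.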

How the data were processed

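The deposited intensities, 1 linear signal for each probe set on each array, come from MAS5, per the submitters' processing notes, which give no version here, and from cRNA of 2 µg total RNA per the labels' protocols. The authors' scaling was kept. Of 54675 probe sets 62 are controls, and the platform annotation gave 41097 probe sets 1 symbol, 1801 several and 11777 none. By gene identifier 41043 were matched to RefSeq (GRCh38.p14), and 54 kept their name. The members and lists were chosen with earlier results of these data known. Every probe set annotated to a member was taken. Signals were transformed as log2(signal + 16). Probe sets with a mean at or above the median of non-control probe sets (4.96, a signal of 15.2) were tested, 27307 in number, with limma 3.58.1 in R 4.3.3 (lmFit, eBayes with an intensity trend) and Benjamini-Hochberg adjustment over them at 0.05. A gene outside the members was represented by its brightest probe set.

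Same-numbered arrays of both groups deviated together from their group means, with r = 0.64, 0.39 and 0.25 for numbers 1, 2 and 3 over the tested probe sets. So did TAT-2 replicate 2 with vector replicate 3 (r = 0.32) and TAT-2 replicate 3 with vector replicate 2 (r = 0.20). Replicate 1 with another number gave r from -0.52 to -0.33. Replicate 1 thus stood apart, while these values do not settle the matching of numbers 2 and 3. The block fit is given on this ground, with a factor for replicate 1 alone as an alternative. What a number stands for is not in the labels. Genes were named by rule: all members, MMUT, PRSS2, up to 3 called partners per list, genes next to the outermost members, up to 10 in the stretch by size, and the 5 nearest patterns.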

Additional observations from a re-analysis of the deposited data

How the results depend on the processing

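The median difference of the members stayed below 0 in all 18 alternatives, from -0.46 to -0.37 with arrays left out and from -0.45 to -0.34 otherwise, and that of the other genes of the stretch did so from -0.42 to -0.32 with arrays left out, with -0.25 at a pseudocount of 64 and -0.19 without a filter. The members were chosen on this contrast and the stretch was known from these data, so these signs are a description. The count of 8 called probe sets without the block was 1424 with the replicate block, 1232 with a factor for replicate 1, 13 with quantile normalization, 24 with array medians centred, 5 without the intensity trend, and 36 without probe sets ending in _x_at or _s_at. It ran from 0 to 299 with arrays left out, with 0 without replicate 2 or 3 of either group and 29 without TAT-2 replicate 1. The 2 block fits added after seeing the data called 0 probe sets without the trend and 415 without a filter. Partner genes called numbered 14 with the block, 13 with the factor, 6 with the block and no filter, and 0 to 4 with arrays left out. Member probe sets called in the replicate 1 contrast, 5 in number, were 2 without a filter, 2 with medians centred, 1 without the trend, 2 without _x_at and _s_at probe sets, and 0 to 4 with arrays left out. The causes were not tested. At a signal filter of percentile 70 GSTA4 was not tested.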
